A study of Rattus norvegicus with 21 samples.

Results

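The levels of 6 chemokine genes, of 32754 genes in the count table, were followed in the wall of the rat urinary bladder after spinal cord injury (SCI). They were chosen by name, with earlier results of these data known, and taken by Ensembl identifier: Cxcl12 (ENSRNOG00000013589), Ccl5 (ENSRNOG00000010906), Ccl2 (ENSRNOG00000007159), Cxcl10 (ENSRNOG00000022256), Cxcl1 (ENSRNOG00000002802) and Cxcl2 (ENSRNOG00000002792). No table used here pairs these identifiers with symbols, so the symbols are those given with the list of identifiers and were not checked. RNA sequencing counts came from full-thickness bladders of wild-type male Sprague Dawley rats that were 6 to 7 weeks old when injured. SCI rats had a complete transection of the spinal cord at thoracic level T8 and were studied 2, 8 or 16 weeks later, and noninjured controls were studied at 0, 2, 8 and 16 weeks. The sources used here do not say that controls had a sham operation, so injury and surgery cannot be told apart. Each of the 7 groups had 3 libraries, 21 in all. The sample titles name no batch, so an effect of batch was not tested. The identifiers also could not be matched to marker genes of muscle, urothelium or leukocytes, so the labeled tissue was not checked in that way.

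Chemokines are small secreted proteins that guide the movement of cells through G protein-coupled receptors. Cxcl12 differs from the others in being made constantly by stromal, endothelial and muscle cells of many tissues, where it holds and positions cells that carry Cxcr4. Ccl2, Ccl5, Cxcl1, Cxcl2 and Cxcl10 are mainly inducible, through NF-kappaB for all of them and also through interferon for Cxcl10 and Ccl5, and in the bladder they are best known from infection and inflammation. Ccl2 recruits monocytes through Ccr2, Ccl5 recruits T cells and monocytes, Cxcl10 recruits activated T cells through Cxcr3, and Cxcl1 and Cxcl2 recruit neutrophils through Cxcr2.

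Promoter sequences are shown to set Cxcl12, the constantly made member, beside 3 of the inducible members. RefSeq promoters of the GRCr8 assembly were at hand for 4 of the 6 members, each 300 bases long with 250 bases before the start site and 50 after it. They are those of Cxcl12 (chr4:152060531-152060830, plus strand), Cxcl10 (chr14:15988816-15989115, plus strand), Cxcl1 (chr14:17479272-17479571, minus strand) and Cxcl2 (chr14:17467206-17467505, minus strand). Capitals mark matches on either strand to the kappaB consensus, the site of NF-kappaB proteins, or to the core of the interferon-stimulated response element, which reads GAAA, any 2 bases and GAAA again. No letters are in capitals in the Cxcl12 promoter.
Cxcl12: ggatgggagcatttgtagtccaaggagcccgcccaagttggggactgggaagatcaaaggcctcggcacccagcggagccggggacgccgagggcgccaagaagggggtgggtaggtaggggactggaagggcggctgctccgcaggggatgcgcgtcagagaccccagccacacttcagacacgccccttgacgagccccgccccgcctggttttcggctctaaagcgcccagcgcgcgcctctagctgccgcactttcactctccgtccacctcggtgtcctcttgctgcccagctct
Cxcl10: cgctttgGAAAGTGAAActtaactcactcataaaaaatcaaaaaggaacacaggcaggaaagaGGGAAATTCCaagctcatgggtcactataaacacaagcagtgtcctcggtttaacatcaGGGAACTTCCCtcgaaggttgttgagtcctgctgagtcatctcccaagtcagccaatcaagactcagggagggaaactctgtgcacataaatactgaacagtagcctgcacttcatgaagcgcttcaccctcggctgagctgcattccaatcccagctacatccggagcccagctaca
Cxcl1: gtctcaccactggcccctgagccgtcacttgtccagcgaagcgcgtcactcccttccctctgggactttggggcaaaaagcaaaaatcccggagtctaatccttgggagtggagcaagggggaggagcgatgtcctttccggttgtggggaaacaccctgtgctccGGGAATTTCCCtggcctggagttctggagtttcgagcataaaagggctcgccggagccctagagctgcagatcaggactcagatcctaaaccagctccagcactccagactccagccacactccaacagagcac
Cxcl2: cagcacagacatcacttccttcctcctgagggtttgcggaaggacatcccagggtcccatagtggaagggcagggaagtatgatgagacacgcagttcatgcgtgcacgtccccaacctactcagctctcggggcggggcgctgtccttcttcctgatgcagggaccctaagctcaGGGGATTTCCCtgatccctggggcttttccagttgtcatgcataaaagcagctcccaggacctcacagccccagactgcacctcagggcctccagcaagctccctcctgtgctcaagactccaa
The kappaB consensus was found in the promoters of Cxcl1, Cxcl2 and Cxcl10 and not in that of Cxcl12, and 7.51% of all 33469 rat promoters in the table held it. Counted from the start site, with negative positions before it, the match began at -84 in Cxcl1 and at -74 in Cxcl2, and Cxcl10 held matches that began at -187 and -128. At 3 of these 4 places at least 1 further match overlapped the first by all but 1 base. The interferon response core was found in Cxcl10 alone among the 4, beginning at -243, and 3.92% of all promoters held it. A match is a description of the letters and not a measured site, and this assembly differs from the one named for the counts.

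Library totals ran from 8087726 to 15472537 counts with a median of 9584812, and the highest total belonged to control 16 weeks replicate 1. Levels are given as CPM, the count in each 1000000 counts of a library, after TMM scaling (trimmed mean of M values). A floor of 3 counts corresponded to 0.194 to 0.371 CPM, depending on the library. Cxcl12 held 16124 counts over the 21 libraries, Cxcl10 641, Ccl2 344, Ccl5 343, Cxcl1 87 and Cxcl2 11. The first 4 met the minimum on counts and entered the test of 15225 genes, whereas Cxcl1 and Cxcl2 did not meet it. The counts do not allow levels to be compared between genes, since gene lengths of the annotation counted were not used. In bulk tissue, fewer cells of a type and less RNA per cell cannot be told apart.

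Cxcl12 RNA was lower in SCI bladders than in controls of the same week at 2, 8 and 16 weeks, by 39.1%, 42.7% and 59.2% of the control mean. At 2 weeks the levels were 40.4, 45.6 and 66.0 CPM after SCI (50.7 ± 13.5, SD, n = 3) and 73.5, 86.8 and 89.2 CPM in controls (83.2 ± 8.44, n = 3). At 8 weeks they were 46.2, 48.5 and 54.7 CPM after SCI (49.8 ± 4.39, n = 3) and 82.6, 86.1 and 92.1 CPM in controls (86.9 ± 4.81, n = 3). At 16 weeks they were 38.5, 43.3 and 61.8 CPM after SCI (47.9 ± 12.3, n = 3) and 78.8, 87.4 and 186 CPM in controls (117 ± 59.7, n = 3). The groups did not overlap at any of the 3 weeks, and the highest SCI library of all lay below the lowest control of these weeks. Of all genes tested, 8.43% had every SCI library below the controls at 2 weeks, 14.7% at 8 weeks, 18.3% at 16 weeks and 2.08% at all 3 weeks. The controls taken at 0 weeks measured 52.9, 81.7 and 93.5 CPM (76.1 ± 20.9, n = 3), and the lowest of them lay within the range of the SCI libraries.

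Calls required an adjusted p under 0.05 from edgeR's quasi-likelihood test, by the Benjamini-Hochberg method over every tested gene. Averaged over the 3 weeks, Cxcl12 fell by 0.94 on the log2 scale (SE 0.16, adjusted p = 0.00116 by edgeR), and the call was kept in all 26 alternative fits run, where the log2 fold change lay between -1.02 and -0.77. An exact two-sided permutation test that exchanged SCI and control labels within weeks gave a mean log2 difference of -0.92 with p = 0.00025, the smallest value that its 8000 arrangements can give. In this averaged comparison 22.7% of the tested genes were called and 12.3% were called lower after SCI. The balance of calls depended on scaling, with 1578 genes higher and 1876 lower after TMM scaling and 3652 higher and 1272 lower with library size only. With library size only the 8-week calls went from 499 higher and 782 lower to 2435 and 653, and the 16-week calls from 362 and 493 to 478 and 292. By week, the log2 fold change was -0.71 (SE 0.28, adjusted p = 0.581) at 2 weeks, -0.80 (SE 0.28, adjusted p = 0.0750) at 8 weeks and -1.30 (SE 0.28, adjusted p = 0.0253) at 16 weeks in the edgeR fit, and only the last was called. The 8-week difference was called in 3 of 15 alternative fits and the 16-week difference in 10 of 15. The call at 16 weeks was lost without control 16 weeks replicate 1, whose 186 CPM was the highest Cxcl12 level of the series. Without that library the 16-week value was -0.80 (edgeR adjusted p = 0.118), close to the values at the earlier weeks, and the average over weeks was -0.77 (adjusted p = 0.00146). The 16-week call was also lost without SCI 16 weeks replicate 1, 2 or 3 (adjusted p = 0.0958, 0.0668 and 0.0651), which left 2 libraries in that group. Over all genes, the 16-week calls fell from 855 to 18 without the control library, and to 12, 107 and 17 without these SCI libraries.

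**Figure D1:**
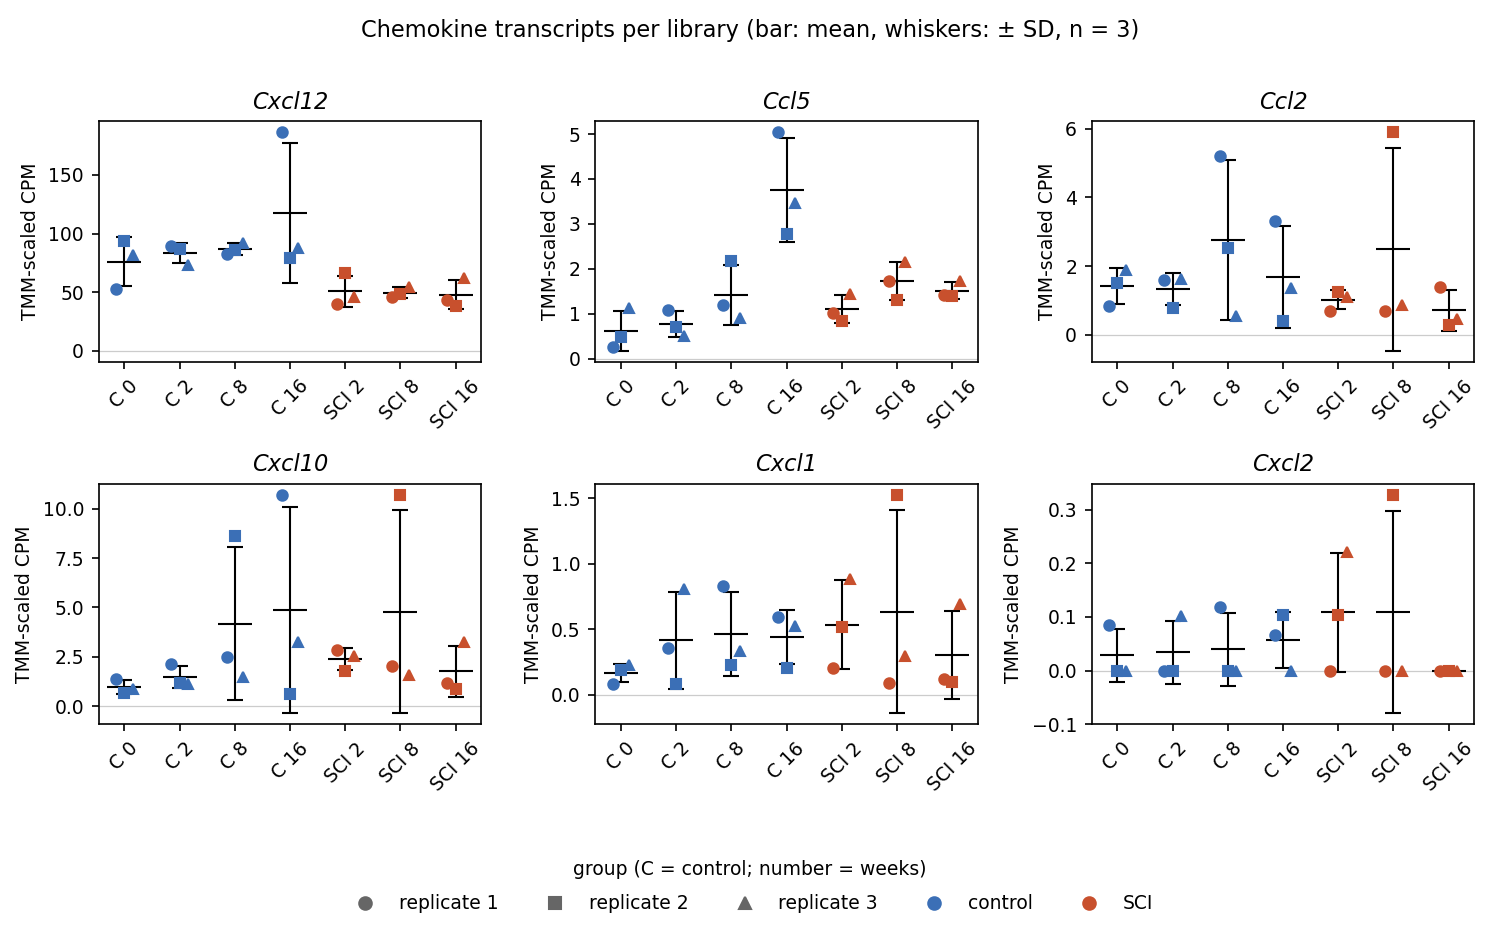
TMM-scaled CPM of each chemokine gene (vertical axis, separate linear scale for each gene) in the 21 libraries by group (C, control; SCI, spinal cord injury; the number is weeks). Points are libraries, horizontal bars are means and whiskers are ± SD with n = 3. For Cxcl12 the SCI points lie between 38.5 and 66.0 CPM and the controls of 2, 8 and 16 weeks at 73.5 CPM or above, whereas for Ccl2 and Cxcl10 a few single libraries lie far above the rest.

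Ccl5 showed another pattern, in which the 16-week controls stood apart from every other group. Its levels were 2.77, 3.46 and 5.04 CPM in the 16-week controls (27, 33 and 76 counts, mean 3.76 ± 1.16, SD, n = 3), which were the 3 highest of the 21 libraries. They were 1.39, 1.41 and 1.73 CPM after SCI at 16 weeks (14, 12 and 15 counts, mean 1.51 ± 0.193, n = 3). The groups did not overlap at 16 weeks, as was the case in the same direction for 18.3% of the genes tested. Ccl5 was 59.8% lower after SCI at 16 weeks, with a log2 fold change of -1.33 (SE 0.38) and an edgeR adjusted p of 0.0490, just inside the threshold. It was called in 6 of 15 alternative fits, with adjusted p from 0.0210 to 0.200 over all of them, and was lost when any of the 6 libraries of this comparison was left out. In those fits with a library left out, edgeR called 12 to 504 genes in all, beside 855 with every library. Without control 16 weeks replicate 1 the log2 fold change of Ccl5 was -1.04 (edgeR adjusted p = 0.200). With scaling by library size only it was -1.23 (adjusted p = 0.0652).

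At the earlier weeks SCI and control levels of Ccl5 overlapped. At 2 weeks they were 0.829, 1.01 and 1.44 CPM after SCI and 0.507, 0.711 and 1.07 CPM in controls, a log2 fold change of 0.50 (SE 0.46, adjusted p = 0.938 by edgeR). At 8 weeks they were 1.31, 1.72 and 2.15 CPM after SCI and 0.900, 1.18 and 2.18 CPM in controls, a log2 fold change of 0.29 (SE 0.41, adjusted p = 0.694 by edgeR). The sign was thus positive at 2 and 8 weeks without a call, and negative at 16 weeks. Over the alternative fits the value lay between 0.25 and 0.81 at 2 weeks and between 0.04 and 0.73 at 8 weeks. The controls at 0 weeks were at 0.255, 0.474 and 1.12 CPM, the first of them with 3 counts, and their mean of 0.615 ± 0.447 CPM (SD, n = 3) was the lowest of the 7 groups. Among controls the group means rank in the order of age, 0.615, 0.763, 1.42 and 3.76 CPM at 0, 2, 8 and 16 weeks. The log2 fold change from 0 to 2 weeks changed sign when a single library was left out. Only the step from 8 to 16 weeks was without overlap between neighboring control groups, and it had a log2 fold change of 1.41 (SE 0.39, adjusted p = 0.206 by edgeR). Averaged over weeks, Ccl5 had a log2 fold change of -0.18 (SE 0.24, adjusted p = 0.621 by edgeR), between -0.26 and -0.03 over the alternative fits.

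**Figure D2:**
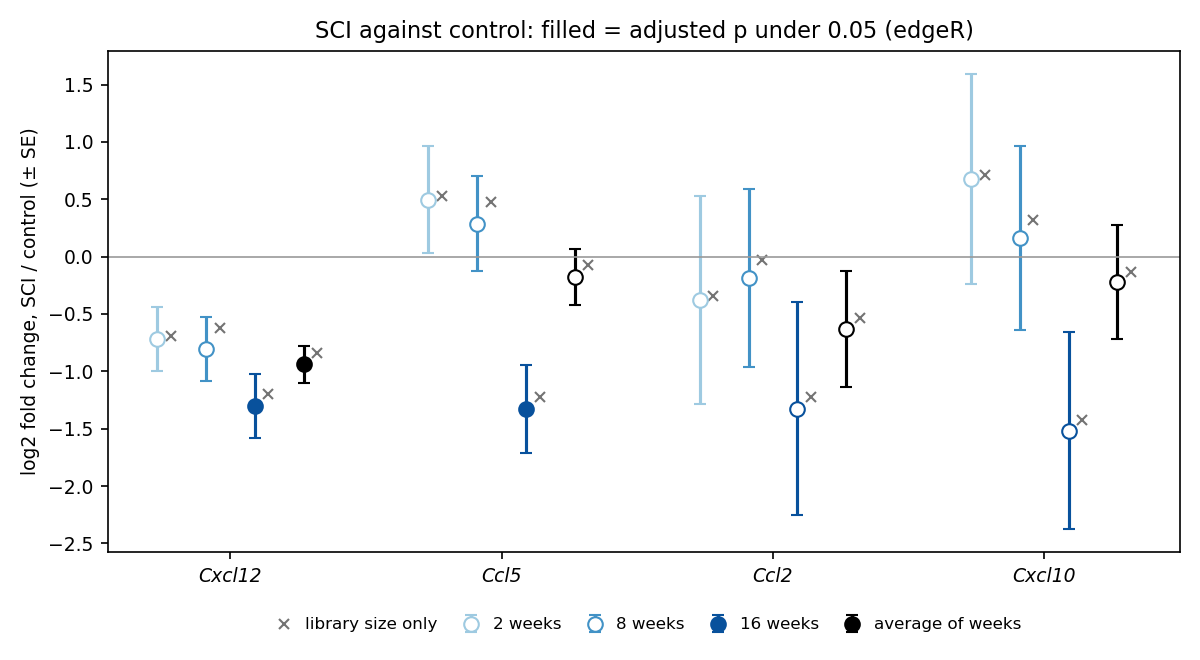
Log2 fold change of SCI against control (vertical axis, error bars ± SE) for the 4 chemokine genes tested, at 2, 8 and 16 weeks and averaged over the weeks. Filled circles have an edgeR adjusted p under 0.05 and crosses give the value with scaling by library size only. Cxcl12 is below 0 throughout, from -0.71 to -1.30, and Ccl5 is above 0 at 2 and 8 weeks and at -1.33 at 16 weeks.

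Across the 4 tested members, none was called at 2 weeks by edgeR or DESeq2, when edgeR called 0.0% of all genes and DESeq2 called 0.42%. At an unadjusted p under 0.05 edgeR counted 1 member at 2 weeks, Cxcl12, and 6.67% of all genes. At 8 weeks edgeR called 8.41% of all genes and 0 members, although Cxcl12 had an unadjusted p under 0.05, as did 28.0% of all genes, and was called by DESeq2 with an adjusted p of 0.0426, as were 12.9% of all genes. At 16 weeks edgeR called 5.62% of all genes, 3.24% as lower after SCI, and 2 of the 4 members, Cxcl12 and Ccl5, both lower. All 4 members had a negative log2 fold change at 16 weeks, with a median of -1.33 beside -0.02 for all tested genes. Without control 16 weeks replicate 1 all 4 stayed negative and their median was -0.56. At 2 and 8 weeks the members were divided, 2 below and 2 above 0, with medians of 0.06 and -0.01 beside 0.00 for all genes at each week. The values at the 3 weeks come from separate groups of libraries.

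**Figure D3:**
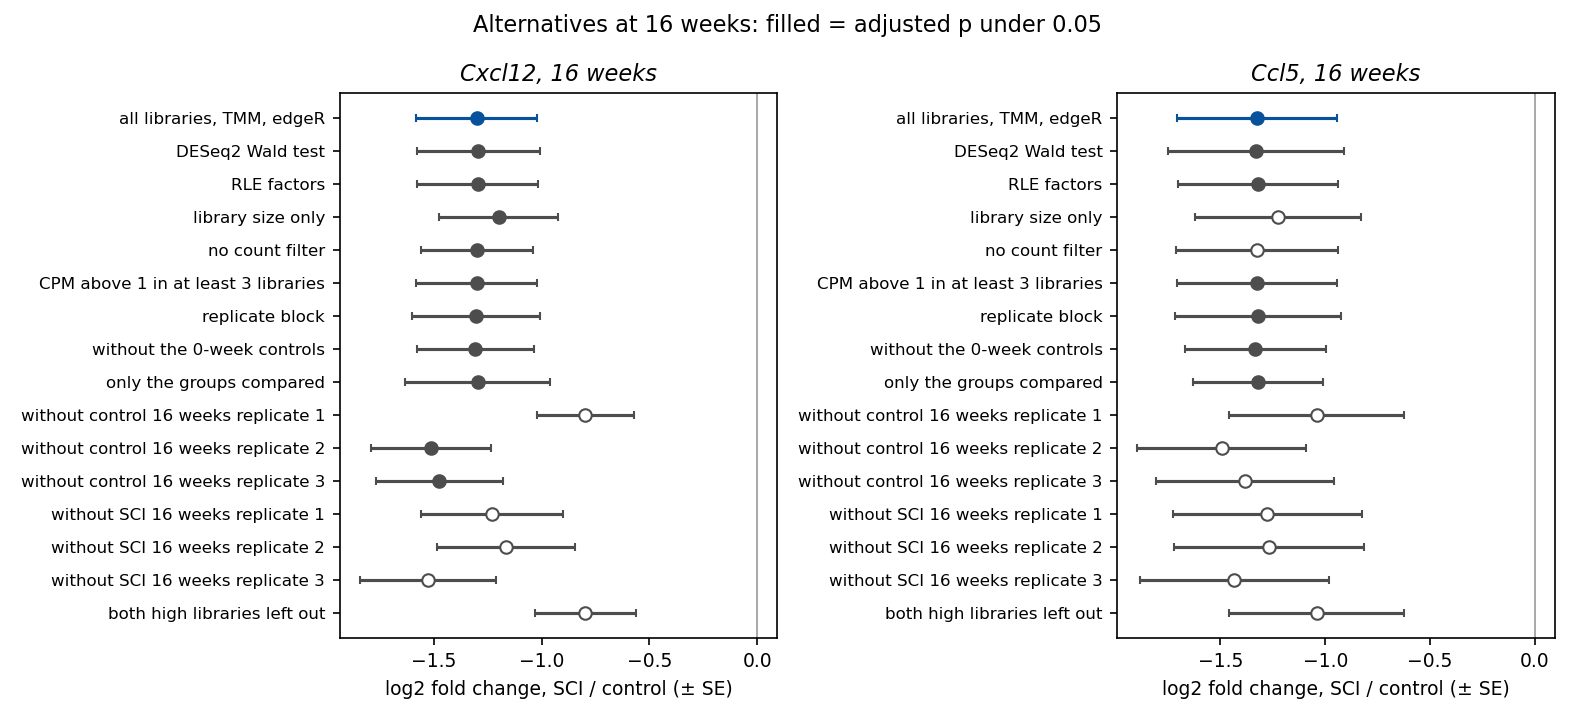
Log2 fold change at 16 weeks (horizontal axis, error bars ± SE) of Cxcl12 and Ccl5 in the fit reported and in each of 15 alternatives (vertical axis). Filled circles have an adjusted p under 0.05. All values are below 0, Cxcl12 moves from -1.30 to -0.80 without control 16 weeks replicate 1, and Ccl5 loses its call in 9 alternatives.

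Ccl2 and Cxcl10 were high in a few single libraries of different groups. For Ccl2 the highest levels were 5.89 CPM in SCI 8 weeks replicate 2 (54 counts), 5.20 CPM in control 8 weeks replicate 1 (44 counts) and 3.31 CPM in control 16 weeks replicate 1 (50 counts), against a median of 1.24 CPM over all libraries. For Cxcl10 the highest levels were 10.7 CPM in SCI 8 weeks replicate 2 (98 counts), 10.7 CPM in control 16 weeks replicate 1 (161 counts) and 8.60 CPM in control 8 weeks replicate 2 (75 counts), against a median of 1.76 CPM. The high libraries thus included injured and noninjured bladders. The biological coefficient of variation, edgeR's estimate of the spread between replicates beyond counting error, was 0.660 for Ccl2 and 0.674 for Cxcl10. These values lay above those of 99.3% and 99.4% of the tested genes, whose median was 0.134, whereas Cxcl12 (0.236) and Ccl5 (0.239) lay above 81.8% and 82.4%. These shares were taken over all tested genes, without matching by count.

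By group, Ccl2 levels at 2 weeks were 0.709, 1.11 and 1.24 CPM after SCI and 0.790, 1.61 and 1.62 CPM in controls. At 8 weeks they were 0.687, 0.880 and 5.89 CPM after SCI and 0.562, 2.52 and 5.20 CPM in controls, and at 16 weeks 0.299, 0.462 and 1.41 CPM after SCI and 0.411, 1.36 and 3.31 CPM in controls. SCI and control ranges overlapped at every week, and the 0-week controls (0.851, 1.52 and 1.90 CPM) lay within the range of the other controls. The log2 fold changes were -0.38 (SE 0.91), -0.18 (SE 0.78) and -1.33 (SE 0.93) at 2, 8 and 16 weeks, with edgeR adjusted p of 0.992, 0.904 and 0.366. Single libraries moved the 8-week value, which was -1.80 without SCI 8 weeks replicate 2 and 0.65 without control 8 weeks replicate 1. At 16 weeks it was -0.32 without control 16 weeks replicate 1. Averaged over weeks the log2 fold change was -0.63 (SE 0.51, adjusted p = 0.380 by edgeR). That average was -1.17 with SCI 8 weeks replicate 2 left out, -0.35 when control 8 weeks replicate 1 was omitted instead, and -0.29 if control 16 weeks replicate 1 was dropped.

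Cxcl10 levels at 2 weeks were 1.76, 2.55 and 2.84 CPM after SCI and 1.12, 1.19 and 2.14 CPM in controls. At 8 weeks they were 1.56, 2.06 and 10.7 CPM after SCI and 1.46, 2.48 and 8.60 CPM in controls, and at 16 weeks 0.896, 1.17 and 3.23 CPM after SCI and 0.616, 3.25 and 10.7 CPM in controls. Again the ranges overlapped at every week, and the 0-week controls (0.664, 0.892 and 1.36 CPM) were the lowest group by mean. The log2 fold changes were 0.68 (SE 0.92), 0.17 (SE 0.80) and -1.52 (SE 0.86) at 2, 8 and 16 weeks, with edgeR adjusted p of 0.971, 0.918 and 0.264. The 8-week value was -1.19 without SCI 8 weeks replicate 2 and 1.25 without control 8 weeks replicate 2. The 16-week value was -0.14 without control 16 weeks replicate 1. The average over weeks, -0.22 (SE 0.50, adjusted p = 0.776 by edgeR), changed sign without that library, to 0.23, and without control 8 weeks replicate 2, to 0.14.

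The libraries with high chemokine RNA differed between members. SCI 8 weeks replicate 2 ranked first of all 21 libraries for Ccl2, Cxcl10, Cxcl1 and Cxcl2, and ranked 11 for Ccl5 and 16 for Cxcl12. Its lead was within counting error for each of the 4, since its 95% interval overlapped that of the next library. For Cxcl10 it was level with control 16 weeks replicate 1 (8.64 to 13.0 and 8.86 to 12.1 unscaled CPM), and for Cxcl2 it had 3 counts against 2 in SCI 2 weeks replicate 3. Control 16 weeks replicate 1 had the highest level for Cxcl12 and Ccl5 and ranked 2 for Cxcl10, 3 for Ccl2 and 6 for Cxcl1. Ranks for Cxcl2 below the first rest on 2 counts or fewer and are not given. Control 8 weeks replicate 1 ranked 2 for Ccl2 and 3 for Cxcl1. The part of the kappaB matches printed above in these levels was not tested. With both SCI 8 weeks replicate 2 and control 16 weeks replicate 1 left out, an alternative chosen after seeing the data, Cxcl12 remained lower after SCI (average log2 fold change -0.77, edgeR adjusted p = 0.00149) and at 16 weeks the edgeR adjusted p was 0.0972 for Cxcl12 and 0.180 for Ccl5. The 8-week Cxcl12 difference was then called (-0.79, edgeR adjusted p = 0.0359).

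**Figure D4:**
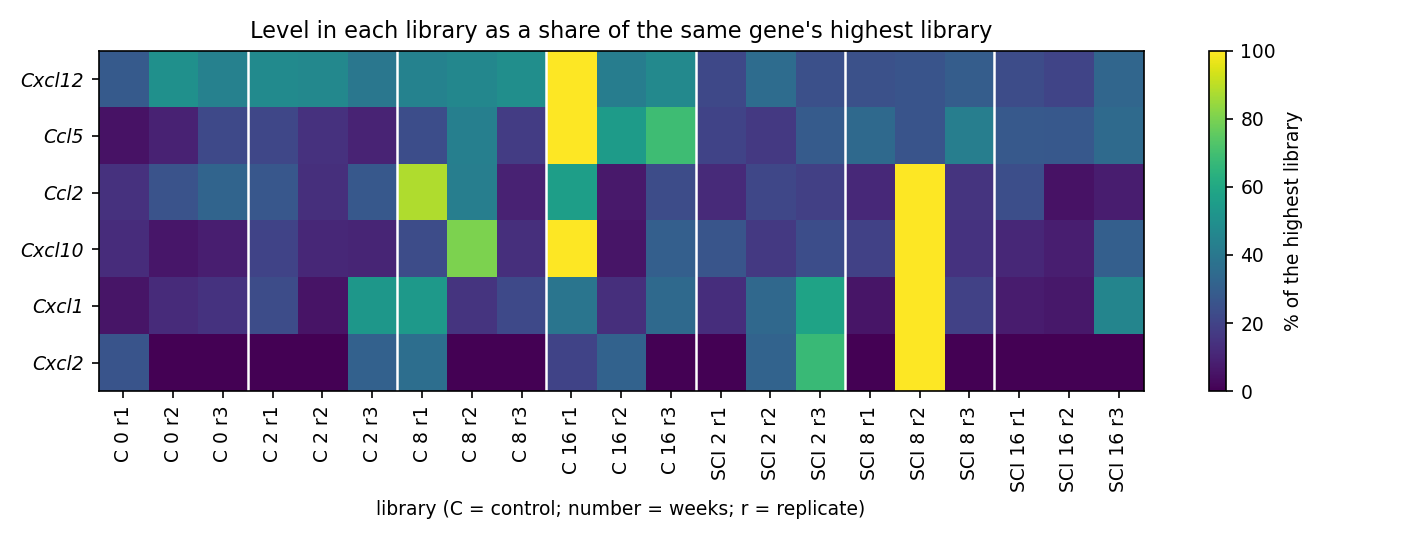
Level of each chemokine gene in each of the 21 libraries (columns; C, control; the number is weeks; r, replicate), as a percentage of that gene's own highest library (color scale). SCI 8 weeks replicate 2 is the highest column for Ccl2, Cxcl1 and Cxcl2, control 16 weeks replicate 1 is the highest for Cxcl12 and Ccl5, and the 2 are level for Cxcl10.

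Cxcl1 and Cxcl2 were near the limit of detection in every group. Cxcl1 had 1 to 14 counts per library, with the highest level in SCI 8 weeks replicate 2 (1.53 CPM after scaling, and a 95% Clopper-Pearson interval of 0.832 to 2.55 unscaled CPM for counting error only). Over the 3 libraries of a group it had 5, 13, 12 and 16 counts in controls at 0, 2, 8 and 16 weeks and 15, 18 and 8 counts after SCI at 2, 8 and 16 weeks. Of the 18 counts after SCI at 8 weeks, 14 were in replicate 2. Exact permutation within weeks gave a mean log2 difference of -0.05 for Cxcl1 (two-sided p = 0.905), so no difference was detected at these counts and with this spread between libraries.

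Cxcl2 had no count in 13 libraries and 11 counts in the other 8, with at most 3 counts in a library. Its group sums were 1, 1, 1 and 2 counts in controls at 0, 2, 8 and 16 weeks and 3, 3 and 0 counts after SCI at 2, 8 and 16 weeks. The 0 counts after SCI at 16 weeks allow levels of up to 0.301 to 0.371 unscaled CPM per library by the floor of 3 counts, and of up to 0.370 to 0.456 by the upper bound of the two-sided 95% Clopper-Pearson interval. Exact permutation within weeks gave a mean log2 difference of 0.09 (two-sided p = 0.661), so no difference was detected at these counts. Cxcl1 and Cxcl2 are neighboring genes of similar sequence, and reads that could come from either may have been split or dropped in counting.

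Changes with time within an arm were small for Cxcl12. Among controls its log2 fold change was 0.13 (SE 0.27) from 0 to 2 weeks, 0.06 (SE 0.27) from 2 to 8 weeks and 0.44 (SE 0.27) from 8 to 16 weeks, the last with 186 CPM in 1 library, with edgeR adjusted p of 0.874, 0.926 and 0.662. Without that library the step from 8 to 16 weeks turned slightly negative. After SCI it was -0.03 (SE 0.28) from 2 to 8 weeks and -0.06 (SE 0.28) from 8 to 16 weeks, and neither step was called. The SE of these steps, 0.27 to 0.28, leaves changes of this size undetected, and the sign of the step from 2 to 8 weeks in controls turned negative (-0.07) with library size alone. For Ccl2 and Cxcl10 the steps from 2 to 8 weeks were positive in controls (1.05, SE 0.82, and 1.49, SE 0.88) and after SCI (1.24, SE 0.86, and 0.97, SE 0.84), and none was called. The 2 steps after SCI turned to -0.38 and -0.39 without SCI 8 weeks replicate 2. In controls the Ccl2 step was 0.21 without control 8 weeks replicate 1 and the Cxcl10 step 0.40 without control 8 weeks replicate 2.

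Over the 5 steps in time, edgeR called 0 of the 4 members in each, and DESeq2 likewise called 0. At an unadjusted p under 0.05 edgeR counted 1 member in the step from 8 to 16 weeks in controls, Ccl5, and 0 in the other 4 steps. The shares of all genes called by edgeR were 0.0% for controls from 0 to 2 weeks, 0.0% for controls from 2 to 8 weeks, 0.0788% for controls from 8 to 16 weeks, 0.0131% for SCI from 2 to 8 weeks and 0.0% for SCI from 8 to 16 weeks. In the same order DESeq2 called 0.289%, 1.47%, 0.677%, 0.144% and 0.00657% of all genes, and edgeR's unadjusted p was under 0.05 for 13.4%, 18.9%, 9.5%, 4.49% and 1.81%. A direct test asked whether the SCI difference itself changed between weeks. For Ccl5 the difference at 16 weeks was lower than that at 2 weeks by -1.82 on the log2 scale (SE 0.60, adjusted p = 0.615 by edgeR) and lower than that at 8 weeks by -1.61 (SE 0.56, adjusted p = 0.612). For Cxcl12 the corresponding values were -0.59 (SE 0.39, adjusted p = 0.697 by edgeR) and -0.50 (SE 0.39, adjusted p = 0.882), so a change of its SCI difference with time was not shown. The second of these values changed sign, to near 0, without control 16 weeks replicate 1. In these tests, between 2 and 8, 2 and 16, and 8 and 16 weeks, edgeR called 0 members each, beside 0.0197%, 0.0% and 0.0% of all genes. DESeq2 also called 0 members each, beside 0.177%, 0.0394% and 0.105% of all genes. At an unadjusted p under 0.05 edgeR counted 0, 1 and 1 members, the last 2 being Ccl5, beside 8.59%, 7.75% and 6.63% of all genes.

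In the order of group means, the 4 control groups held the first 4 places for Cxcl12, from 117 CPM at 16 weeks to 76.1 CPM at 0 weeks, and the 3 SCI groups the last, at 50.7, 49.8 and 47.9 CPM. Neighbors in that order overlapped in every case, including the controls at 0 weeks and SCI at 2 weeks. For Ccl5 the 16-week controls did not overlap with the next group, SCI at 8 weeks (1.73 ± 0.421 CPM, SD, n = 3), and all other neighbors overlapped. For Ccl2 the means ran from 2.76 CPM in 8-week controls to 0.722 CPM after SCI at 16 weeks, and for Cxcl10 from 4.85 CPM in 16-week controls to 0.972 CPM in 0-week controls, with overlap between all neighbors. The first places of the 16-week controls include a single high library, replicate 1. It had 186 CPM for Cxcl12 beside 78.8 and 87.4 CPM, and 10.7 CPM for Cxcl10 beside 0.616 and 3.25 CPM.

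The gene whose log2 CPM was most like that of Cxcl12 over the 21 libraries was ENSRNOG00000024886, with a Pearson r of 0.907 and a Spearman rho of 0.860. For Ccl2 it was ENSRNOG00000002122, with an r of 0.819 and a rho of 0.836. By rho another gene came first for Cxcl12 and the same gene came first for Ccl2. These values describe 21 libraries that share group differences and scaling, and no test was made of them. With group means removed, r was 0.779 and 0.812, and another gene came first for each. For Ccl5 and Cxcl10 the closest genes had an r of 0.818 and 0.764, and the closest gene of Ccl5 fell to 0.295 with group means removed.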

How the data were processed

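RNA of full-thickness rat bladders was sequenced by the authors in 21 libraries as 51-base paired-end reads after removal of ribosomal RNA, with a stranded kit, and reads from 2 flow cells were combined. What was deposited are raw counts of whole reads by Ensembl gene, without normalization. The submitters' processing notes name the Rnor_6.0 build, FastQC 0.11.9, MultiQC 1.13, Trim Galore 0.6.10, STAR 2.7.10a, SAMtools 1.17 and featureCounts 2.0.3, without roles, annotation release or strand setting, so overlapping genes and close copies may share reads. Groups came from the sample titles, and each of the 21 columns matched 1 sample.

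In edgeR 4.0.16 (R 4.3.3), filterByExpr kept 15225 of 32754 genes, TMM factors ranged from 0.903 to 1.09, and 1 quasi-likelihood fit of 7 group means without covariates (14 residual degrees of freedom) gave 12 comparisons. P-values were adjusted by Benjamini-Hochberg over all tested genes, with a threshold of 0.05. Standard errors came from the fold change and the F statistic. Single genes were also tested by exact permutation of log2 CPM (prior count 2) within weeks. With 3 libraries against 3, an exact test at 1 week cannot give a two-sided p below 0.1. Counting intervals (95%) and the floor of 3 counts cover counting error only. Every pair of replicates differed by more than sampling noise (chi-square of 7.22 to 59.9 per degree of freedom), and each library counted as 1 replicate. A supplementary legend of the study, where RNA sequencing is set beside NanoString, calls the time-course samples biological replicates. Whether each of these libraries is a separate animal is not stated there. The titles carry a code for each library that the sources used here do not explain, and p-values measure the spread between these samples. The scripts were tested on simulated data in which 200 genes were changed 4-fold at 8 weeks after SCI. For SCI versus control at 8 weeks, edgeR called 186 of them with 10 false calls, and DESeq2 called 187 with 38 false calls.

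The 6 members and all lists were chosen with earlier results of these data known. All members were named, and the gene most like a member was the one with the highest Pearson r, with at most 2 identifiers printed. Lists of receptors, other chemokines, inducers and cell type markers need symbols, and 0 identifiers matched the RefSeq table (GRCr8), so these lists were not analyzed. The alternatives were DESeq2 1.42.0, RLE factors, library size only, no count filter, CPM above 1 in at least 3 libraries, a replicate block, a fit without the 0-week controls, a fit of only the groups compared, each library left out, and, chosen after seeing the data, 2 high libraries left out together.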

Additional observations from a re-analysis of the deposited data

How the results depend on the processing

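The Cxcl12 difference averaged over weeks kept its direction and its call in all 26 alternatives, and its log2 fold changes at 2, 8 and 16 weeks stayed below 0 in all 15 alternatives run for each. Among the 4 tested members, 745 of 800 alternative log2 fold changes kept their sign and their side of the threshold, 14 lost a call, 3 gained one and 38 reversed, and the cause was not tested. Most of the 800 belong to comparisons without a call in the fit reported, where staying uncalled counts as kept. The lost calls were all at 16 weeks, in 5 of 15 alternatives for Cxcl12 and in 9 of 15 for Ccl5. At SCI versus control at 16 weeks, Ccl5 was not called with library size only (-1.23), with no count filter (-1.32) or with 2 high libraries left out (-1.04), the last chosen after seeing the data, which also took Cxcl12 to -0.80 without a call. Leaving out 1 library moved the 16-week value of Ccl5 between -1.49 and -1.04 and that of Cxcl12 between -1.53 and -0.80. At SCI versus control at 8 weeks, Cxcl12 was called with DESeq2's Wald test (-0.80), with only the groups compared (-0.80) and with 2 high libraries left out (-0.79), where Cxcl10 reversed to -1.19.

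Library size only raised the median log2 fold change of all genes by 0.19 at 8 weeks, 0.10 at 16 weeks and 0.11 in the average. It moved that median by 0.16 in the SCI effect, 8 versus 2 weeks, and by -0.13 in controls, 8 versus 2 weeks. In SCI, 8 versus 2 weeks, the median moved by 0.03. The part of these shifts in sign changes of single genes was not tested. Library size only reversed Cxcl12 in the SCI effect, 8 versus 2 weeks (0.072), in controls, 8 versus 2 weeks (-0.066), and in SCI, 8 versus 2 weeks (0.0056). The permutation differences of Cxcl1 (0.016) and Cxcl10 (0.043) also reversed. Leaving out 1 library gave these ranges of log2 fold change, each with both signs. For SCI versus control at 8 weeks they were -1.80 to 0.65 (Ccl2) and -1.19 to 1.25 (Cxcl10), and in the average over weeks -0.68 to 0.23 (Cxcl10). For the SCI effect, 8 versus 2 weeks, they were -1.43 to 1.03 (Ccl2), -0.52 to 0.24 (Ccl5), -1.87 to 0.57 (Cxcl10) and -0.23 to 0.15 (Cxcl12). For the SCI effect, 16 versus 2 weeks, the range was -1.83 to 0.055 (Ccl2), and for 16 versus 8 weeks -2.03 to 0.48 (Ccl2) and -0.72 to 0.0082 (Cxcl12). In controls, 2 versus 0 weeks, they were -0.36 to 0.20 (Ccl2), -0.018 to 1.07 (Ccl5) and -0.075 to 0.31 (Cxcl12), at 8 versus 2 weeks -0.018 to 0.12 (Cxcl12), and at 16 versus 8 weeks -1.62 to 0.21 (Ccl2), -1.11 to 1.35 (Cxcl10) and -0.065 to 0.66 (Cxcl12). In SCI, 8 versus 2 weeks, they were -0.38 to 1.70 (Ccl2), -0.39 to 1.39 (Cxcl10) and -0.17 to 0.21 (Cxcl12), and at 16 versus 8 weeks -0.28 to 0.080 (Cxcl12).

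The number of all genes called moved more than the members did. For SCI versus control at 2 weeks it was 0 with edgeR, 64 with DESeq2, 9 without the 0-week controls, 4 with only the groups compared, 2 with 2 high libraries left out and 0 to 1 with 1 library left out. At 8 weeks it was 1281 with edgeR, 1960 with DESeq2, 3088 with library size only, 2473 without the 0-week controls, 265 with only the groups compared, 2531 with 2 high libraries left out and 32 to 2602 with 1 left out. At 16 weeks it was 855 with edgeR, 1637 with DESeq2, 2068 without the 0-week controls, 2056 with only the groups compared, 27 with 2 high libraries left out and 12 to 504 with 1 left out. For the SCI effect, 8 versus 2 weeks, it was 3, then 27 with DESeq2, 1 with library size only, without the 0-week controls or with only the groups compared, and 0 to 3 with 1 library left out. For 16 versus 2 weeks it was 0, then 6 with DESeq2, 1 without the 0-week controls and 2 with only the groups compared, and for 16 versus 8 weeks 0, then 16 with DESeq2 and 0 to 22 with 1 left out. For controls, 2 versus 0 weeks, it was 0, then 44 with DESeq2 and 0 to 77 with 1 left out. For controls, 8 versus 2 weeks, it was 0, then 224 with DESeq2, 1 with no count filter, 224 without the 0-week controls, 452 with only the groups compared and 0 to 20 with 1 left out. For controls, 16 versus 8 weeks, it was 12, then 103 with DESeq2, 20 with no count filter, 0 with only the groups compared and 0 to 133 with 1 left out. For SCI, 8 versus 2 weeks, it was 2, then 22 with DESeq2, 8 with library size only, 9 with no count filter, 1 with only the groups compared and 0 to 7 with 1 left out, and for SCI, 16 versus 8 weeks, 0, then 1 with DESeq2.

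Same-numbered SCI and control libraries deviated together with correlations of -0.14 to 0.13, which showed no clear pairing by replicate number. So few libraries cannot settle whether a block was shared. With a replicate block the genes called were 1783 at 8 weeks, 1307 at 16 weeks and 3793 in the average over weeks. Without it they were 1281, 855 and 3454. With the block, the calls in controls were 8 for 8 versus 2 weeks and 5 for 16 versus 8 weeks, and in SCI 4 for 8 versus 2 weeks. The block changed no call of a member. Cxcl1 and Cxcl2 were limited by their counts (87 and 11 in all), and Ccl2 and Cxcl10 varied between libraries more than 99.3% and 99.4% of the tested genes, not matched by count.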
